A study of Mus musculus with 12 samples.

Results

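Hmgb1, Hmgb2 and Hmgb3 encode the HMGB proteins, and all 3 were found by their Entrez IDs among the 27179 gene IDs counted in each library. They were taken as a family, and within it Hmgb2 was chosen by its measured counts, for its higher level in 12-month knockout retina. Values of Hmgb2 that draw on the 12-month libraries are therefore given as a description with no test. Hmgb1 and Hmgb3 entered by family membership and were tested in every comparison.

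Whole mouse retina was profiled by RNA sequencing in 4 groups of 3 libraries each. The 12-month KO and 12-month control groups, and the 3-month KO and 3-month control groups, came from mice with a deletion of ABCA1 in glia (KO) and from controls of the same ages. ABCA1 is a transporter that moves cholesterol and phospholipid out of cells. The sample titles name glia, the protocol names astrocytes, and the sources used here do not give the Cre driver, strain, sex or number of animals per library. P-values therefore measure the spread between these libraries, which may be technical. Whole retina was sequenced, so fewer cells of a type and less RNA per cell cannot be told apart.

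HMGB proteins are abundant nuclear proteins that bind the minor groove of DNA with a pair of HMG boxes and bend it, which loosens nucleosomes and helps other factors to bind. A stretch of acidic residues at the end of the protein folds back on the boxes and tempers their grip on DNA. HMGB1 also leaves dying or activated cells and then acts as an alarm signal on receptors such as RAGE and the Toll-like receptors. HMGB2 is best known from dividing and progenitor cells and HMGB3 from blood progenitors.

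The coding sequences show how alike the family is and where it differs. Over the aligned coding bases, Hmgb2 was 77.1% identical to Hmgb1 and 73.0% identical to Hmgb3, and Hmgb1 was 75.6% identical to Hmgb3. The run of glutamate and aspartate codons just before the stop codon differs in length and make-up, with 23 codons in Hmgb2, 30 in Hmgb1 and 20 in Hmgb3. These runs are shown because they are the part of the coding sequence that encodes the acidic tail, from GENCODE transcripts on GRCm38, 5′ to 3′, with aspartate codons in capitals.
Hmgb2: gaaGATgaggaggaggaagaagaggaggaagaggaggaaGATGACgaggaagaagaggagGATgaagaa
Hmgb1: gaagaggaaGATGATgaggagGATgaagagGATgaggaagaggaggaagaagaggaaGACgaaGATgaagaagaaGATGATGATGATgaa
Hmgb3: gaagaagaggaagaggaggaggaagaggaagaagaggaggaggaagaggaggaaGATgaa
Hmgb1 has 10 aspartate codons in this run, Hmgb2 has 4 and Hmgb3 has 1.

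The promoters differ as well. The windows below run from 250 bases before to 50 bases after each RefSeq start on GRCm38.p6, 5′ to 3′ on the gene's strand, with each CCAAT in capitals. They are shown so that the start of Hmgb2, the gene whose groups stood apart, can be read beside those of its relatives. CCAAT was the only motif searched, on both strands. Hmgb2 is at chr8:57511843-57515999 on the plus strand, with its window at chr8:57511593-57511892. Hmgb1 is at chr5:149046702-149053057 on the minus strand, with the window of its upstream start at chr5:149053008-149053307. Hmgb3 is at chrX:71555917-71560673 on the plus strand, with its window at chrX:71555667-71555966.
Hmgb2: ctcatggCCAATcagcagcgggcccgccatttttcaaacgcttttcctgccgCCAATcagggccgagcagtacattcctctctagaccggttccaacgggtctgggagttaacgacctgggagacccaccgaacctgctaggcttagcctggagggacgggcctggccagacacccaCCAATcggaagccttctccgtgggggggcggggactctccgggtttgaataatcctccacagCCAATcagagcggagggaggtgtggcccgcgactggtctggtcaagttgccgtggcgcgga
Hmgb1: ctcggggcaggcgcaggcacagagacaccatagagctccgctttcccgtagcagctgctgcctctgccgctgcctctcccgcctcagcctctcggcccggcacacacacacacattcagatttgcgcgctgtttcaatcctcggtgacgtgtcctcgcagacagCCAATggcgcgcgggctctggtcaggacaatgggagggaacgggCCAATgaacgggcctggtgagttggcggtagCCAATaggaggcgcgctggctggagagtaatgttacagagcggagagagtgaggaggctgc
Hmgb3: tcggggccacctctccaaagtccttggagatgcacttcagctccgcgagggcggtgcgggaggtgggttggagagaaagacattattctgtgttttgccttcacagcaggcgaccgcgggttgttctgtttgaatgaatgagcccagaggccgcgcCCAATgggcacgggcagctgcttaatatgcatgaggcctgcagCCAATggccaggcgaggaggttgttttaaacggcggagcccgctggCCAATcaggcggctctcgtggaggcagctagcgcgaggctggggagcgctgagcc
Counted from the start site as 0, the matches began at -243, -198, -73 and -11 in Hmgb2, at -86, -42 and -11 in Hmgb1 and at -94, -51 and -5 in Hmgb3, and each lay on the gene's own strand. A window at a downstream Hmgb1 start, chr5:149051567-149051866, held none. Of 32851 RefSeq promoter windows of this length, 37.4% held at least 1 match, 3.37% at least 3 and 1.06% at least 4. A match describes these letters and is not evidence of a bound site.

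**Figure D1:**
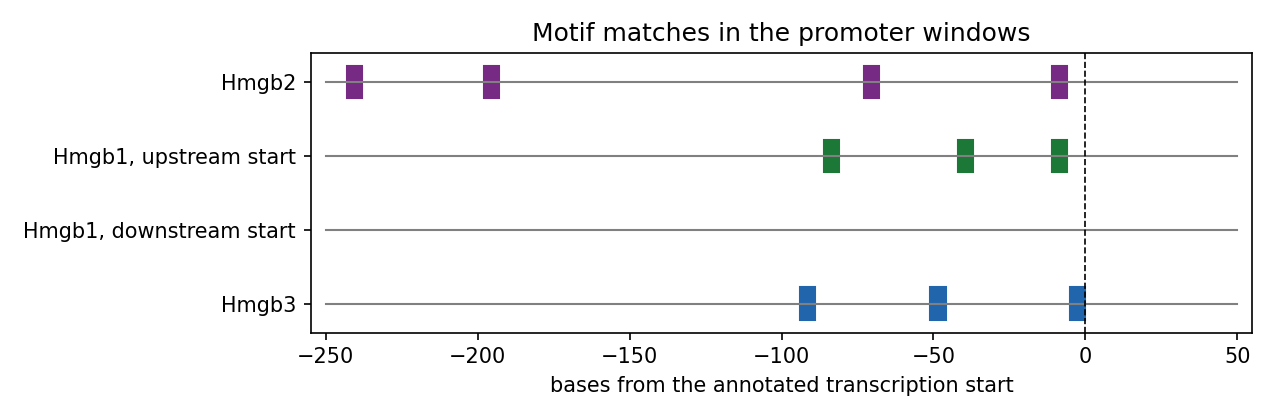
Positions of CCAAT matches (coloured boxes) in the promoter windows of the 3 HMGB genes, on an axis of bases from the annotated start, which is the dashed line. Hmgb2 has 4 matches, the upstream Hmgb1 start and Hmgb3 have 3 each, and the downstream Hmgb1 start has none.

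Libraries held 29027099 to 30438026 counts, and rod markers summed to 41545 to 49968 CPM, in keeping with the labelled tissue. More genes had a count in 12-month KO libraries (18887 to 19144) than in the other groups (18541 to 18725). Abca1 was not lower in KO retina, at 36.3 ± 7.91 CPM against 30.8 ± 2.66 CPM at 12 months and 26.3 ± 1.78 CPM against 22.7 ± 3.34 CPM at 3 months (SD, n = 3 each). Counts over all cells and exons do not check a glial deletion. Xist, the RNA of the inactive X chromosome, stood at 52.3 to 85.5 CPM in 12-month KO libraries, against 0.167 to 0.203 CPM in 12-month control libraries. The Y-linked gene Ddx3y stood at 33.7 to 45.4 CPM in 12-month KO and at 30.6 to 38.2 CPM in 12-month control libraries. At 3 months Xist stood at 0.0686 to 0.609 CPM in KO and 0.201 to 0.272 CPM in control libraries. The deletion and the Xist difference cannot be told apart at 12 months. In KO retina, age and the Xist difference cannot be told apart either, for any gene. The difference of the KO effects carries the Xist difference too. Replicate 2 of 3-month control and replicate 1 of 12-month KO stood apart from their groups. Their squared differences from their fellows were 41.9 to 43.1 and 21.6 to 24.9 times the counting variance, against 4.19 and 5.16 between the other libraries of those groups. Log2 fold changes that moved most without them are also given without them.

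Hmgb2 was the member whose groups stood apart. Scaled to library size (CPM, the unit of all levels here), its counts were 75.5, 72.4 and 80.3 in 12-month KO libraries and 46.2, 35.6 and 45.2 in 12-month control libraries. At 3 months they were 50.8, 54.0 and 55.3 in KO libraries and 45.7, 36.4 and 48.0 in control libraries. Every 12-month KO library lay above all 9 others, a pattern that 1.8% of all 16475 genes tested showed, and the lowest of them was far above the highest 12-month control library. The group means were 76.1 ± 4.02 CPM in 12-month KO, 42.3 ± 5.85 in 12-month control, 53.4 ± 2.29 in 3-month KO and 43.4 ± 6.18 in 3-month control (SD, n = 3 each). In order of level, 12-month KO came above 3-month KO, which came above both control groups, and the control groups overlapped.

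The fitted log2 fold change of Hmgb2 between KO and control at 12 months was 0.85 ± 0.10 (SE), or 1.80-fold. It is given with no test because this contrast chose the gene. It was one of 21 genes called higher there, 0.127% of those tested, from which nothing is read. Without replicate 1 or replicate 2 of 12-month control it was 0.91 and 0.74, the range over all settings tried. In the authors' deposited table, the log2 fold change of Hmgb2 at 12 months was 0.67 with a standard error of 0.0847 and a mean normalized count of 1523. That log2 fold change lay below the range over all settings tried here, and the reason was not tested.

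The 3-month libraries took no part in choosing Hmgb2, so this comparison was tested. The lowest KO library, at 50.8 CPM, lay above the highest control library, at 48.0 CPM, as it did for 7.97% of all genes tested. The log2 fold change was 0.30 ± 0.10 (SE), or 1.23-fold with a 95% interval of 1.06 to 1.43. It did not pass over all genes tested (adjusted p = 0.63, unadjusted p = 0.00999, edgeR quasi-likelihood test), where 0.225% of genes were called in either direction. A two-sided exact permutation test over the libraries had p = 0.1, the smallest that 3 against 3 allow. Without 3-month control replicate 2, the lowest of its group, the log2 fold change was 0.19, and without replicate 3 it was 0.38. The control libraries at 3 months also carried lens markers at 32.3 to 3887 summed CPM and skeletal muscle markers at 51.6 to 60.9 summed CPM. The highest lens sum was that of replicate 2, which also stood apart from its group. There the lens gene Cryaa was at 1923 CPM, against 12.7 and 67.0 CPM in replicates 1 and 3. In 3-month KO libraries these 6 lens and 6 muscle genes summed to 4.97 to 6.34 CPM and 3.95 to 5.83 CPM. Their part in the result was not tested. In 12-month control libraries the same lens and muscle genes summed to 6.42 to 24.7 CPM and 3.94 to 4.34 CPM. At 3 months the deletion and the difference in lens and muscle markers cannot be told apart, for any gene. Age contrasts in control retina and the difference of the KO effects, for any gene, also use the 3-month control libraries. The part of these markers there was not tested.

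With age, Hmgb2 was higher at 12 than at 3 months in KO retina, by a log2 fold change of 0.51 ± 0.10 (SE), or 1.43-fold. In control retina the same contrast gave -0.03 ± 0.11 (SE), and -0.15 without 3-month control replicate 2. The KO effect at 12 months exceeded that at 3 months by 0.55 ± 0.15 on the log2 scale (SE), and by 0.66 without both libraries that stood apart. These contrasts use the 12-month libraries and have no test, and the contrasts that share a group are not independent of each other. The age contrast in KO retina and the difference of the KO effects also carry the Xist difference.

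**Figure D2:**
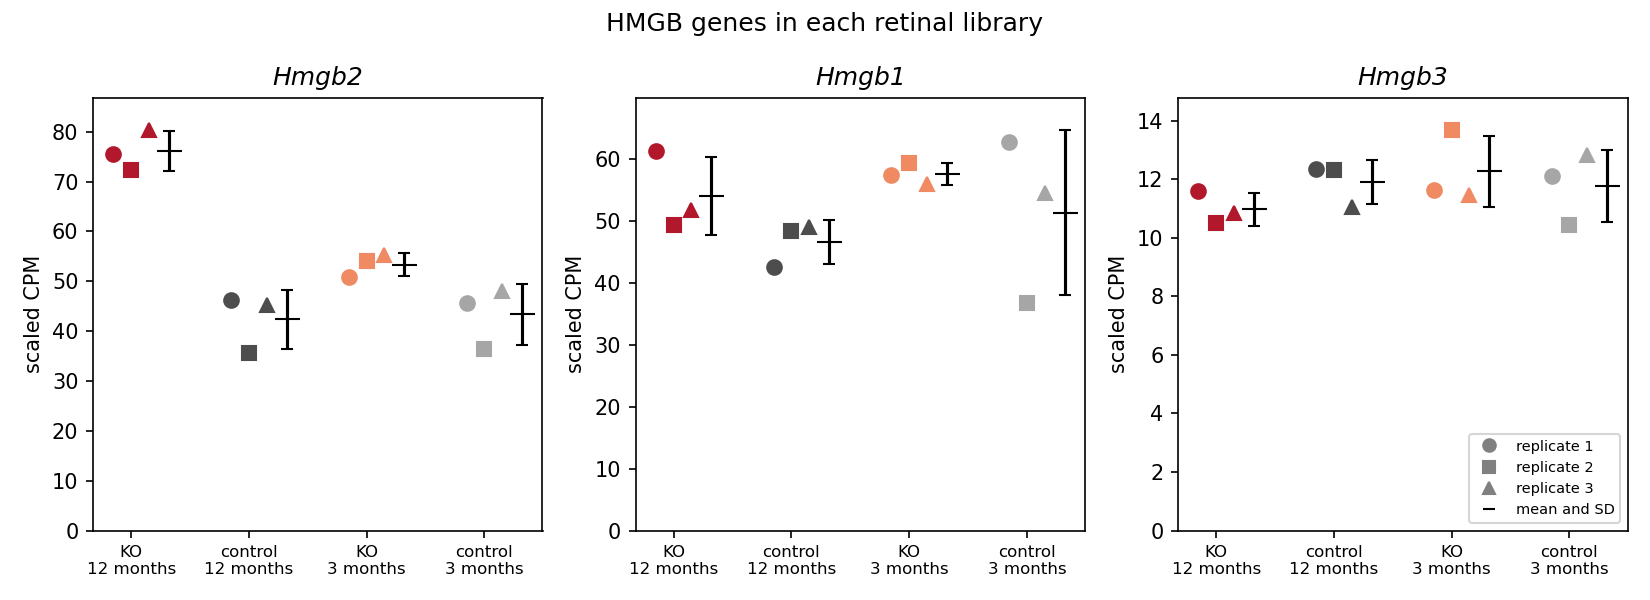
Scaled CPM (vertical axis, from 0) of Hmgb2, Hmgb1 and Hmgb3 in each of the 12 libraries by group, with symbols for the replicate number and a bar for the group mean and SD. The 12-month KO libraries are at 72.4 to 80.3 CPM for Hmgb2, above every other library, while the groups overlap for Hmgb3 and, at 3 months, for Hmgb1.

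Hmgb1, the founding member and the one known as a released alarm signal, did not pass the test in any comparison. Its levels were 61.3, 49.4 and 51.8 CPM in 12-month KO libraries and 42.6, 48.5 and 49.0 CPM in 12-month control libraries. At 3 months they were 57.5, 59.4 and 56.0 CPM in KO libraries and 62.9, 36.8 and 54.6 CPM in control libraries. The 12-month groups just failed to overlap, as for 8.32% of all genes tested, whereas the 3-month control libraries spanned both sides of the KO libraries. The order of the means was 57.6 ± 1.72 CPM in 3-month KO, 54.2 ± 6.31 in 12-month KO, 51.4 ± 13.3 in 3-month control and 46.7 ± 3.57 in 12-month control (SD, n = 3 each). Neighbours in that order overlapped.

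At 12 months the log2 fold change of Hmgb1 in KO against control was 0.21 ± 0.15 (SE), with a 95% interval of -0.10 to 0.53 (adjusted p = 0.71, edgeR quasi-likelihood test). The exact permutation test gave p = 0.1, the smallest possible. Without replicate 1 of 12-month KO the value was 0.11. At 3 months it was 0.17 ± 0.15 (SE, adjusted p = 0.76, edgeR), and it turned to -0.027 without 3-month control replicate 2. In the authors' deposited table the 12-month log2 fold change of Hmgb1 was 0.18 with a standard error of 0.0832.

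The age contrasts of Hmgb1 pointed down without passing. The log2 fold change of 12 over 3 months was -0.09 ± 0.15 in KO (SE, adjusted p = 0.88, edgeR) and -0.14 ± 0.15 in control retina (SE, adjusted p = 0.81, edgeR). The KO value was -0.19 without replicate 1 of 12-month KO and -0.028 without replicate 2. Of all genes tested, 2.37% were called with age in KO and 2.11% in control. The control contrast also moved with single libraries, since it was 0.032 without 3-month control replicate 1 and -0.33 without replicate 2. With both libraries that stood apart left out it was -0.33 and passed (adjusted p = 0.0043, edgeR). The KO effects at the 2 ages differed by 0.05 ± 0.21 on the log2 scale (SE, adjusted p = 1.0, edgeR), and by -0.12 to 0.24 with 1 library left out.

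Hmgb3, the X-linked member, had the lowest level of the 3. It stood at 11.6, 10.5 and 10.8 CPM in 12-month KO libraries and 12.4, 12.3 and 11.04 CPM in 12-month control libraries. At 3 months it stood at 11.6, 13.7 and 11.5 CPM in KO libraries and 12.1, 10.4 and 12.8 CPM in control libraries. All 4 groups overlapped, with raw counts of 311 to 399 per library.

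The log2 fold change of Hmgb3 was -0.12 ± 0.12 (SE) at 12 months, with a 95% interval of -0.37 to 0.14 (adjusted p = 0.81, edgeR). At 3 months it was 0.06 ± 0.12 (SE, adjusted p = 0.90, edgeR), and it turned to -0.023 without 3-month control replicate 2 and -0.028 without 3-month KO replicate 2. The age contrasts were -0.16 ± 0.12 in KO (SE, adjusted p = 0.65, edgeR) and 0.01 ± 0.12 in control retina (SE, adjusted p = 0.98, edgeR), which turned to -0.066 without 3-month control replicate 2. The KO effects at the 2 ages differed by -0.17 ± 0.17 (SE, adjusted p = 1.0, edgeR), and 0.127% of all genes tested were called in that contrast. Without replicate 2 of 3-month KO the age contrast in KO was -0.075 and the difference of the KO effects -0.089, and without 3-month control replicate 2 that difference was -0.094.

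**Figure D3:**
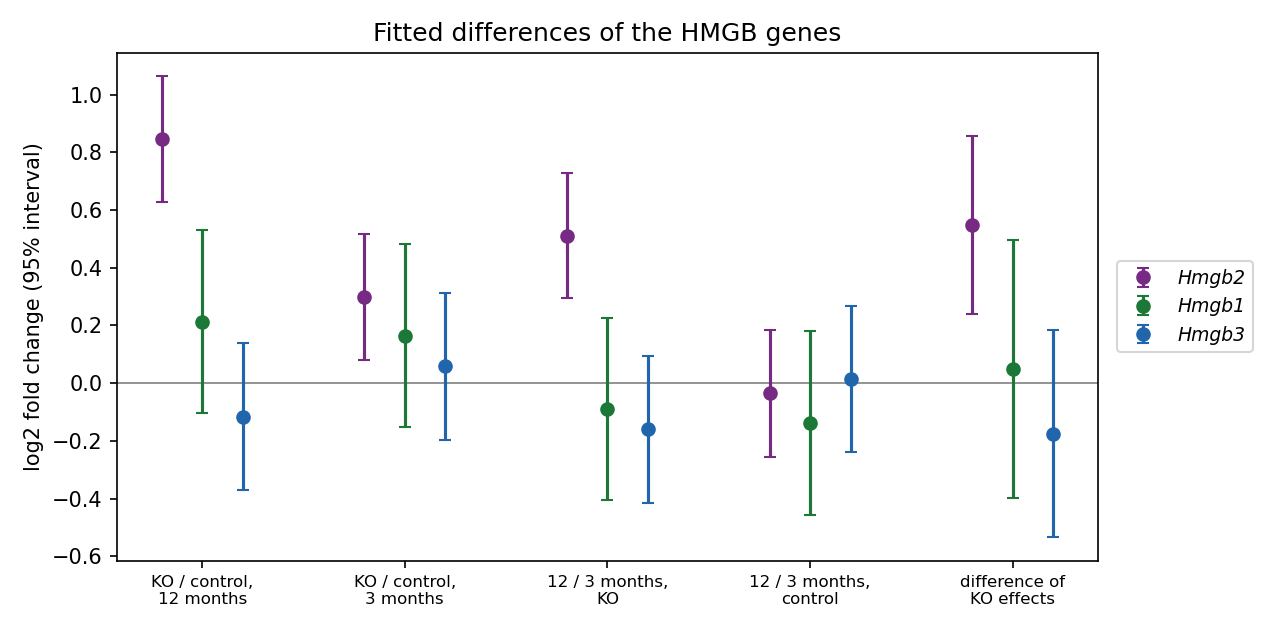
Fitted log2 fold changes (vertical axis) with 95% intervals for the 3 HMGB genes in the 5 comparisons. The intervals of Hmgb1 and Hmgb3 include 0 in each comparison, and that of Hmgb2 reaches from 0.63 to 1.06 at 12 months and from 0.08 to 0.52 at 3 months.

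Per length, Hmgb3 remained the lowest member and the order of Hmgb2 and Hmgb1 rested on the length used. Divided by the merged exon length in GENCODE, Hmgb2 averaged 17.9 CPM per kb over the 12 libraries, Hmgb1 10.4 and Hmgb3 5.25. By the longest transcript, the values were 20.5 for Hmgb2, 18.5 for Hmgb1 and 6.73 for Hmgb3. In 12-month control retina Hmgb2 stood at 14.1 ± 1.95 and Hmgb1 at 9.30 ± 0.711 CPM per kb of merged exons (SD, n = 3). By the longest transcript the same libraries gave 16.1 ± 2.23 for Hmgb2 and 16.5 ± 1.26 for Hmgb1. By that length Hmgb2 was above Hmgb1 in 12-month KO, at 29.0 ± 1.53 against 19.1 ± 2.22, and the means of the other 3 groups were equal or lower for Hmgb2.

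The make-up of the family's RNA followed Hmgb2. Per kb of merged exons, Hmgb2 held 61.8 ± 2.42% of the summed HMGB level in 12-month KO, 48.9 ± 4.46% in 12-month control, 51.2 ± 1.65% in 3-month KO and 48.4 ± 2.24% in 3-month control (SD, n = 3 each). Hmgb1 held 26.2% in 12-month KO, 32.5% in 12-month control, 33.0% in 3-month KO and 33.8% in 3-month control. Hmgb3 held 12.0%, 18.6%, 15.8% and 17.8% in the same order. The ratio of Hmgb2 to Hmgb1 counts, which needs no scaling between libraries, was 1.23, 1.46 and 1.55 in 12-month KO libraries. It was 1.09, 0.734 and 0.921 in 12-month control libraries, so the groups did not overlap. Hmgb2 was chosen for its level in 12-month KO, so this separation and the 12-month shares are a description only. At 3 months the ratio was 0.884, 0.909 and 0.987 in KO and 0.727, 0.989 and 0.880 in control libraries, which overlapped.

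**Figure D4:**
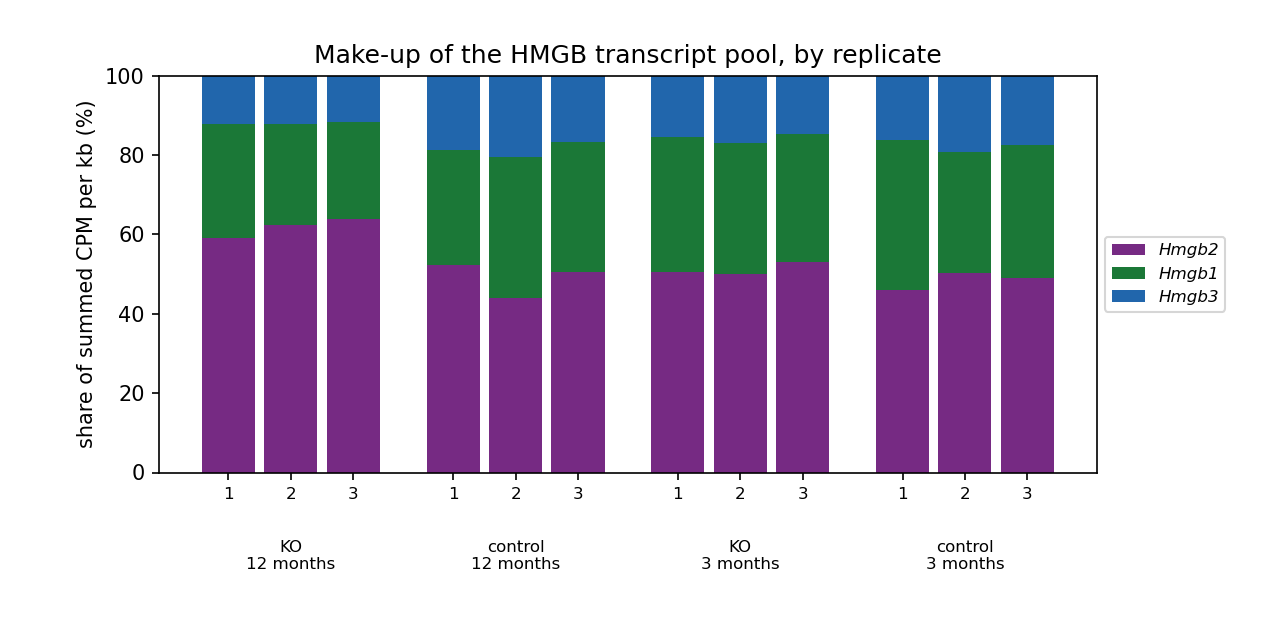
Share of each HMGB gene (percent) in the summed CPM per kb of merged exons, 1 stacked bar per library with replicate numbers under the bars. Hmgb2 takes 59.1% to 63.8% in 12-month KO libraries and 43.9% to 52.4% in 12-month control libraries.

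The relation between the members across the 12 libraries was as follows. On the log2 CPM scale, Pearson's r was 0.45 between Hmgb2 and Hmgb1, -0.23 between Hmgb2 and Hmgb3 and 0.45 between Hmgb1 and Hmgb3. Spearman's rho was 0.48, -0.17 and 0.33 for the same pairs. The values come from the same libraries and are a description only. Spread around the group means, as edgeR's biological coefficient of variation, was 0.0938 for Hmgb2, 0.128 for Hmgb1 and 0.103 for Hmgb3.

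The genes whose log2 CPM was most like that of Hmgb2, among 11653 named genes with at least 5 CPM, were Arrdc3 (r = 0.92), Pms1 (0.91), Zfand1 (0.91), Pign (0.91) and Ppp2r2b (0.90) over the 12 libraries. Arrdc3, an arrestin-domain protein, averaged 79.1 CPM in 12-month KO, 43.8 in 12-month control, 52.7 in 3-month KO and 50.2 in 3-month control. Pms1 belongs to the DNA mismatch repair family. For Hmgb1 the nearest genes were Selenot (0.98), Krit1 (0.97), Acsl3 (0.97), Ccng1 (0.96) and Bzw1 (0.96), with Selenot lowest in 3-month control replicate 2 at 89.3 CPM, the library where Hmgb1 was lowest too. For Hmgb3 they were Zfp715 (0.88), Lyve1 (0.86), Ncoa4 (0.83), Dipk1a (0.83) and Zfhx2os (0.83). By Spearman's rho, 2 of these 5 genes stayed among the nearest 5 of each member. The correlations of Hmgb2 use the 12-month KO libraries for which it was chosen. All of these correlations are the highest of many and are a description only.

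Markers of other cell types moved with the 12-month KO libraries in part. Summed over 4 genes, markers of dividing cells (Mki67, Top2a, Ccnb1 and Cdk1) were near 0, at 0.165 to 0.605 CPM in 12-month KO and 0 to 0.135 CPM in 12-month control libraries. Bipolar cell markers (5 of 5 found) summed to 1256 to 1405 CPM in 12-month KO and 1488 to 1561 CPM in 12-month control libraries. Amacrine cell markers (5 of 5) summed to 1084 to 1092 CPM in 12-month KO and 1125 to 1165 CPM in 12-month control libraries. Horizontal cell markers (4 of 4) summed to 76.6 to 79.1 CPM in 12-month KO and 63.7 to 71.9 CPM in 12-month control libraries. Astrocyte markers (4 of 4) summed to 33.7 to 35.9 CPM and 31.7 to 33.2 CPM in the same groups. Of the horizontal genes only Calb1 stood apart, at 57.7 to 60.7 CPM and 45.2 to 53.5 CPM. Of the astrocyte genes only Gfap did, at 14.7 to 15.9 CPM and 11.6 to 12.7 CPM. The other genes of both sets overlapped. These sets and the dividing cell markers did not overlap between the 12-month groups, and their part in the Hmgb2 result was not tested. Muller glia markers (5 of 5) overlapped as well, at 4079 to 4290 CPM in 12-month KO and 4268 to 4414 CPM in 12-month control libraries. Microglial markers (7 of 7) overlapped in sum, at 43.5 to 44.6 CPM in 12-month KO and 40.0 to 44.1 CPM in 12-month control libraries. Within that set C1qa was higher in every 12-month KO library, at 11.6 to 12.5 CPM against 8.41 to 9.75 CPM. Cx3cr1 (4.59 to 4.99 against 5.21 to 5.91 CPM) and Csf1r (11.5 to 12.5 against 12.8 to 15.4 CPM) were lower in every one. The other microglial genes overlapped.

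No tested gene of 7 lists of HMGB partners, receptors and relatives passed between KO and control. The lists leave out the SOX and TCF/LEF families of HMG-box genes. Of 96 genes in the lists, 85 were tested, and none was called between KO and control at 12 months, 3 months or in the difference of the KO effects (edgeR, adjusted p of 0.05). Background shares were 0.212%, 0.225% and 0.127% of all genes tested. At an unadjusted p of 0.05, 8 (9.41%), 8 (9.41%) and 6 (7.06%) of the 85 passed, against 8.7%, 7.5% and 4.33% of all genes tested. DESeq2 called 1, 0 and 0 of them and limma-voom 2, 0 and 0. At 12 months, 2 were called without 3-month control replicate 2, Xpo1 and H1f2, and 2 (2.35%) without both libraries that stood apart, Xpo1 and Trex1, where 2.53% of all genes were called. The genes called under these settings were named after their values were seen. Hmgb4, the testis relative of the family, had no count in any library.

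Linker histones, which HMGB proteins displace from nucleosomes, had a median log2 fold change of 0.15 at 12 months and 0.03 at 3 months over 6 of 7 genes tested, and of 0.21 and -0.019 without both libraries that stood apart. The medians of all genes were within 0.01 of 0 at both ages. H1f2 stood at 165, 161 and 145 CPM in 12-month KO and 100.8, 126 and 129 CPM in 12-month control libraries. The groups did not overlap, as for 8.32% of all genes tested. H1f2 was named for its calls with age, which draw on the same 12-month libraries. Its log2 fold change at 12 months was 0.41 ± 0.09 (SE) and did not pass (adjusted p = 0.083, edgeR quasi-likelihood test), though it was called by DESeq2 (adjusted p = 0.012) and limma-voom (adjusted p = 0.010), and without 3-month control replicate 2 in edgeR (adjusted p = 0.019). With both libraries that stood apart left out, H1f2 was not called at 12 months, at 0.37. At 3 months it stood at 100.3, 88.6 and 92.0 CPM in KO and 89.0, 84.6 and 97.9 CPM in control libraries. It rose with age in KO retina, by 0.75 ± 0.09 on the log2 scale (SE, adjusted p = 7.48e-05, edgeR). It also rose with age in control retina, by 0.39 ± 0.09 (SE, adjusted p = 0.026, edgeR). The control call was lost without replicate 1 or 2 of 3-month control and without replicate 2 or 3 of 12-month control (adjusted p of 0.054 to 0.17, edgeR). It was also lost with only the 6 libraries compared and with both libraries that stood apart left out. The difference of the 2 age contrasts, which equals the difference of the KO effects, was 0.36 ± 0.13 (SE) and did not pass (adjusted p = 1.0, edgeR).

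Of the genes for HMGB1 acetylation, export and release, 9 of 11 were tested, with medians of 0.07 at 12 months and 0.05 at 3 months, or 0.095 and 0.080 without both libraries that stood apart. The kinase Jak1, which in cell culture drives the interferon-dependent acetylation and release of HMGB1, was the other call with age. It stood at 131, 150 and 153 CPM in 12-month KO and 121, 116 and 116 CPM in 3-month KO libraries, a log2 fold change of 0.30 ± 0.07 (SE, adjusted p = 0.028, edgeR). It was not called without any 1 of the 3 replicates of 3-month KO or without replicate 2 or 3 of 12-month KO (adjusted p of 0.094 to 0.14, edgeR). In control retina the value was 0.27 (adjusted p = 0.061, edgeR), and it was called by DESeq2 (adjusted p = 0.016), by limma-voom (adjusted p = 0.0078), and by edgeR without replicate 1 of 12-month KO (adjusted p = 0.012) or without both libraries that stood apart (adjusted p = 0.0042). In all, 2 of 85 list genes were called with age in KO, or 2.35% against 2.37% of all genes, and 1 in control, or 1.18% against 2.11%. Genes called higher made up 1.54% in KO and 1.4% in control. With both libraries that stood apart left out, 7 (8.24%) and 5 (5.88%) were called, against 6.43% and 6.25% of all genes.

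Receptors and adaptors of extracellular HMGB1 gave no call with KO at either age over 19 of 20 genes, with medians of 0.07 at 12 months and -0.12 at 3 months. The scavenger receptor Lrp1 averaged 374 CPM in 12-month KO and 435 CPM in 12-month control (log2 fold change -0.22, adjusted p = 0.64, edgeR), and the receptor phosphatase Ptprz1 51.7 and 56.9 CPM (-0.14, adjusted p = 0.69, edgeR). Without replicate 1 of 12-month KO, at 286 CPM against 425 and 412 CPM in the other 12-month KO libraries, the Lrp1 value was -0.055. Without both libraries that stood apart, the receptor medians were 0.0045 at 12 months and -0.042 at 3 months. Partners in DNA repair and the SET complex had medians of 0.04 and 0.03 over 16 genes. The histone chaperones Anp32a and Set had 12-month log2 fold changes of -0.01 and 0.10, and Set had 0.23 at 3 months (adjusted p = 0.64, edgeR). Without replicate 1 of 12-month KO the 12-month values were -0.047 for Anp32a and 0.064 for Set, and without 3-month control replicate 2 the 3-month value of Set was 0.12.

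The nucleosome-binding HMGN and HMGA genes had medians of 0.10 at 12 months and 0.07 at 3 months over 6 genes. Hmgn1, which loosens chromatin, averaged 693 CPM in 12-month KO and 674 CPM in 12-month control, and Hmgn2 222 and 200.1 CPM. Their log2 fold changes were 0.04 and 0.15 (adjusted p = 0.91 and 0.68, edgeR), and -0.055 and 0.057 without replicate 1 of 12-month KO. Without both libraries that stood apart, the list medians were 0.013 at both ages. Other HMG-box genes had medians of -0.01 and 0.05 over 15 of 16 genes, with the repressor Cic at -0.16 (-0.10 without replicate 1 of 12-month KO) and the ribosomal RNA gene factor Ubtf at -0.07 at 12 months. Cell cycle genes had medians of 0.01 and -0.06 over the 14 of 20 that were tested, with the replication clamp Pcna at 0.00 and the cyclin Ccna2 at 0.02 at 12 months. Without replicate 1 of 12-month KO these were -0.17 for Pcna and -0.030 for Ccna2, and without both libraries that stood apart the cell cycle medians were 0.14 at 12 months and -0.041 at 3 months. Mki67, Top2a, Ccnb1, Cdk1, Rrm2 and Aurkb had too few counts to be tested.

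**Figure D5:**
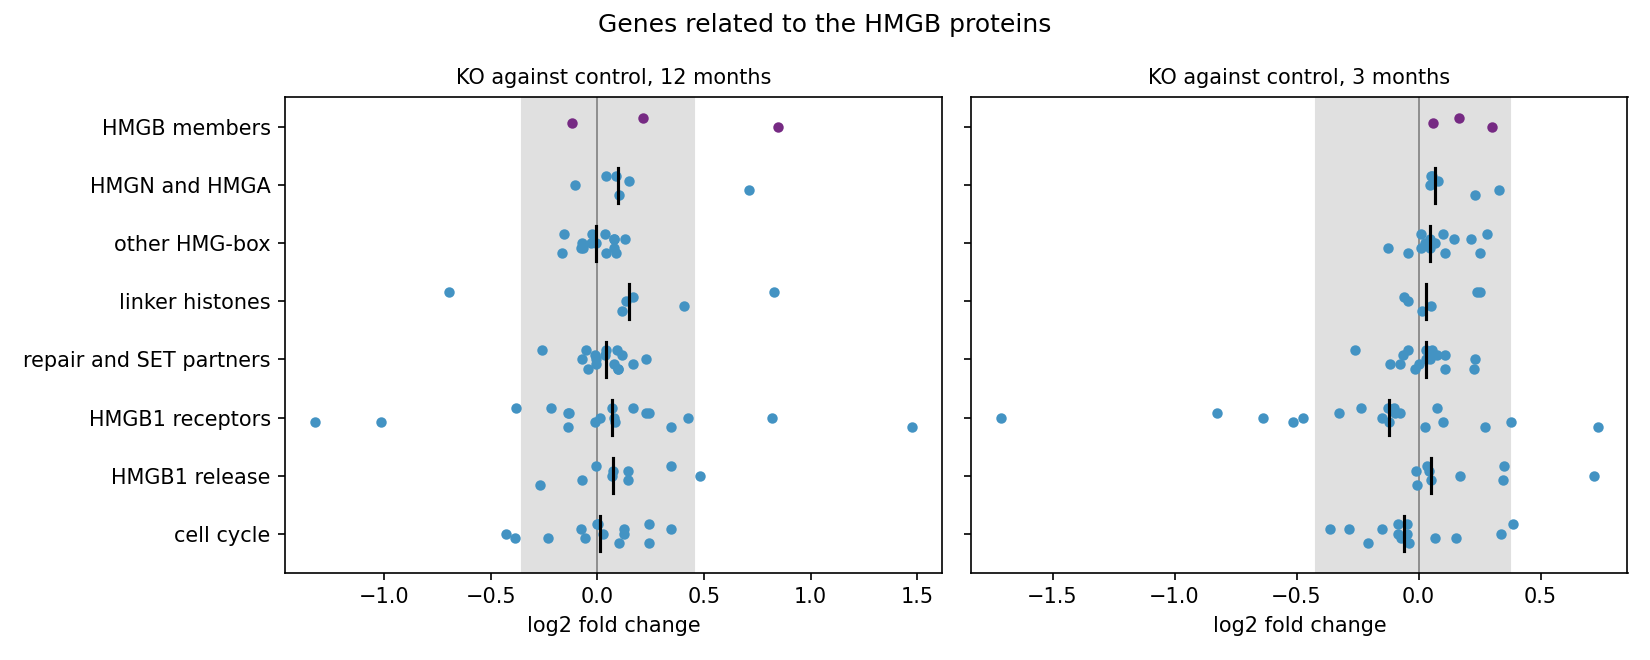
Log2 fold changes (horizontal axis) between KO and control at 12 months and at 3 months for the 3 HMGB genes (purple) and for each tested gene of 7 related lists (blue), with a black bar at each list's median. The grey band holds the middle 90% of all 16475 genes, from -0.35 to 0.45 at 12 months, and Hmgb2 lies right of it at 12 months only.

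Sequence shared with other genes limits how well the members can be counted. Of all 100-base words in the longest transcript, 20.0% of those of Hmgb2, 33.1% of those of Hmgb1 and 18.3% of those of Hmgb3 also occur in another GENCODE gene. The sources used here do not say how reads with several alignments were treated. The copy that shares most with Hmgb1 among those in the count files, Gm21596, held 2 to 10 counts per library, and 4 of the 5 genes that share words with Hmgb2 held 0 to 7 in sum. The one that shares most with Hmgb2, Gm4739, was not analysed here. For Hmgb2 itself, 12-month KO libraries held 2152 to 2366 counts and 12-month control libraries 1059 to 1385.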

How the data were processed

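Stranded mRNA libraries were prepared from whole retina, per the labels' protocols. The submitters' processing notes name HISAT2 2.1.0, featureCounts 1.6.4, DESeq2 1.22.1 and the GRCm38 build. For each of 12 libraries the authors deposited raw counts by Entrez ID, and 25275 of the 27179 IDs were named from RefSeq. The sources used here do not state the strand setting, filters or handling of read pairs. Of counts from 1 to 20, 60.7% to 70.2% were even, against 48.6% to 50.7% of counts above 100 and up to 400, so both reads of a pair may have been counted.

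The authors also deposited a 12-month table without a header, read as mean normalized count (a signal), log2 fold change, standard error, a Wald score, and raw and adjusted p-values. Its log2 values correlated with those computed here across 16473 genes (Spearman's rho 0.931), which gives its direction.

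Counts were fitted with edgeR 4.0.16 in R 4.3.3 (filterByExpr, TMM, robust quasi-likelihood, 1 coefficient per group, all 12 libraries, Benjamini-Hochberg over 16475 genes at 0.05). Log2 CPM used a prior count of 2. Exact two-sided permutation tests used log2 CPM. The model was also run on simulated data with the same spread for every gene and no library that stood apart. That run does not check the model on libraries as uneven as these. Alternatives were RLE and upper quartile scaling, DESeq2 1.42.0, limma-voom (limma 3.58.1), other filters, fewer libraries, a replicate block, halved counts and a threshold of 0.1. Leaving out both libraries that stood apart was added after seeing the data. The members and lists were chosen with earlier results of these data known.

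Genes named were Abca1, the members, the 5 most correlated with each member, sex-linked genes, and from each list up to 4 called genes or, with none called, the 2 with the highest mean CPM. Same-numbered replicates did not deviate together (correlations of -0.08 to 0.14, above 0.1 in 1 of 18 pairs), so numbers do not pair libraries. Every pair of replicates differed by more than counting noise. Intervals cover the spread between libraries.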

Additional observations from a re-analysis of the deposited data

How the results depend on the processing

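Hmgb2 at 12 months ranged from 0.74 to 0.91 over 22 alternatives, and at 3 months from 0.19 to 0.38 over 23, never passing (adjusted p of 0.33 to 1.0, edgeR, DESeq2 and limma). Its age contrast in control ranged from -0.15 to 0.075 over the left-out libraries. Hmgb1 ranged from -0.027 to 0.34 at 3 months, from -0.33 to 0.032 with age in control and from -0.12 to 0.24 for the difference of KO effects. Hmgb3 ranged from -0.028 to 0.12 at 3 months and from -0.066 to 0.079 with age in control. With limma-voom Hmgb3 was -0.022 at 3 months and -0.069 with age in control. With both libraries that stood apart left out, Hmgb1 was -0.027 at 3 months and -0.33 with age in control (adjusted p = 0.0043, edgeR), and Hmgb3 was -0.023 and -0.066. The cause of these shifts was not tested.

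List genes called at 12 months numbered 1 with DESeq2, without a filter and at a threshold of 0.1, 2 with limma-voom and with both libraries left out, and 0 to 2 with 1 library left out. With age in KO they numbered 9 with limma-voom, 7 with both left out and 1 to 5 with 1 left out. With age in control they numbered 4 with DESeq2 and limma-voom, 2 without a filter, 0 with the 6 libraries compared, 3 at a threshold of 0.1, 5 with both left out and 0 to 2 with 1 left out. All genes called with age in KO numbered 390, against 1319 with limma-voom, 1069 with both left out and 187 to 717 with 1 left out. With age in control all genes called numbered 347, against 571 with DESeq2, 773 with limma-voom and 377 without a filter. They were 198 with the 6 libraries compared, 560 at a threshold of 0.1, 1040 with both left out and 201 to 479 with 1 left out. By the longest transcript, levels were 18.5 CPM per kb for Hmgb1 and 6.73 for Hmgb3. All genes called at 12 months numbered 35, against 127 with DESeq2, 186 with limma-voom, 64 without a filter, 66 at a threshold of 0.1, 421 with both left out and 13 to 166 with 1 left out. With the replicate block, the 12-month log2 fold changes were 0.85 for Hmgb2, 0.20 for Hmgb1 and -0.12 for Hmgb3, no member's call changed, and 40 genes were called.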

Other observations

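None of 6 tested neighbours of Hmgb2 on chromosome 8, the nearest on each side in equal number, was called between KO and control at 12 months. Their starts lay -980 to 261 kb from its own, and genes farther away were not examined. Sap30, a subunit of a histone deacetylase complex that lies 29.1 kb away, had a log2 fold change of 0.01 between KO and control at 12 months (adjusted p = 0.99, edgeR). Galnt7, a glycosyltransferase 12.0 kb to the other side, had 0.16 (adjusted p = 0.65, edgeR). The other 4 tested neighbours had log2 fold changes of 0.07 to 0.26.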
